A study of Mus musculus with 64 samples.

Results

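Binding of SOX2, β-catenin and the TCF/LEF factors was examined at 6 genes of the Notch pathway and the segmentation clock, which were Dll1, Dll3, Notch1, Lfng, Hes1 and Hes7. They were chosen by name, out of 21938 protein-coding genes of the GENCODE annotation of mm10. A peak was assigned to a gene when its summit lay inside the gene body or within 20 kb of either end. The 60 peak lists placed 3019 of 12175672 deposited peaks in these 6 windows, and 636 of the 1094874 peaks that were among the 20000 strongest of their library.

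Notch signalling passes between neighbouring cells. A ligand of the Delta or Jagged family binds a Notch receptor, the receptor is cut, and its intracellular part joins the DNA-binding protein RBPJ to switch on genes such as those of the Hes family. In the presomitic mesoderm, which forms from the caudal epiblast, Notch target genes switch on and off in waves that set the pace of somite formation, and WNT and FGF signals from the tail end keep that tissue immature. DLL1 is the main activating ligand of this tissue, and DLL3 is a divergent family member that acts mostly inside the cell that makes it. LFNG is a glycosyltransferase that adds a sugar to the NOTCH1 receptor and changes how it answers to its ligands. HES1 and HES7 are basic helix-loop-helix repressors that shut off their own genes, and HES7 is central to the mouse segmentation clock.

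The samples were mouse cell cultures, and binding was measured by chromatin immunoprecipitation and sequencing (ChIP-seq) after fixation in consecutive steps with disuccinimidyl glutarate and formaldehyde. The 64 samples comprised 60 immunoprecipitated libraries and 4 inputs, for which no peak list was analysed here. Naive embryonic stem cells (naive ESCs) were wild-type cells of the male HM1 TetON line, kept in 2i medium with inhibitors of GSK3 and MEK. Caudal epiblast-like cells (CEpiLCs) were wild-type cells taken through FGF and LGK974, a blocker of WNT secretion, for 2 days and then also given CHIR99021, a GSK3 inhibitor that activates the WNT pathway, up to 72 h. The SOX2 TetON line is a picked clone that lacks endogenous Sox2 and carries a doxycycline-inducible Sox2 transgene in the HPRT locus, with its transactivator at Rosa26. It was differentiated like the CEpiLCs either with doxycycline at 1 µg/ml throughout, called SOX2-ON, or after its removal, called SOX2-OFF. By design SOX2 was therefore high in naive ESCs and SOX2-ON cells and low in CEpiLCs and SOX2-OFF cells. In the wild-type line the medium and the cell state differed along with SOX2, so their effects cannot be told apart. In the SOX2 TetON line the medium was shared except for doxycycline, but cell state changed along with SOX2 there as well. According to the paper, SOX2-ON cells appeared to return to a naive-like pluripotent state. SOX2-OFF cells took on an earlier and more anterior primitive streak identity. Each of the 4 conditions had 3 libraries for each of 5 targets, which were SOX2, β-catenin, LEF1, TCF7L1 (labelled TCF3) and TCF7L2 (labelled TCF4). Expression was not measured in these files, so the cell identities were not checked against marker genes.

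The length of a peak list ranged from 1626 to 991719 peaks, with a median of 106232, and the read depth behind them is unknown. For this reason only the 20000 strongest peaks of a library were compared. Strength was taken from the deposited fold, the enrichment of a peak's summit over its local background. In 10 libraries the list held fewer than 20000 peaks and was used whole, so every peak of these libraries counted among the strongest, however low its fold. They were β-catenin CEpiLC 2 and 3 and SOX2-OFF 2, LEF1 CEpiLC 1 and 2 and SOX2-OFF 2, TCF7L1 CEpiLC 1 and SOX2-ON 2, and TCF7L2 CEpiLC 1 and SOX2-OFF 2. Replicate 1 libraries stood apart in another respect. At least 1 of their 100 strongest peaks lay over coding exons of Tfap2a, Tfap2c or Tcf7l1 in 15 of 20 libraries, against 0 of 20 in replicate 2 and 1 of 20 in replicate 3, and the part of this in the results was not tested.

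The sequences below are those on which the account of the 6 loci turns. Each covers 100 bp on either side of a summit, on the + strand of mm10 (GRCm38), and sites are named by their distance from the start of the principal transcript of the gene, with a minus sign for upstream. The first 6 show, for each gene, the site that best separated the conditions. These are Dll1 −6.4 kb at chr17:15382257-15382457, Dll3 −0.1 kb at chr7:28302258-28302458, Notch1 +60.8 kb at chr2:26442925-26443125, Lfng −0.7 kb at chr5:140606553-140606753, Hes1 +17.0 kb at chr16:30082192-30082392 and Hes7 −1.4 kb at chr11:69118940-69119140. The remaining 3 sequences were added after the values were seen, because they held the most often occupied sites of their loci. They are Dll1 −4.8 kb at chr17:15380701-15380901, Dll3 +12.2 kb at chr7:28289933-28290133 and Hes7 −2.3 kb at chr11:69117988-69118188. Capitals mark letters that match, on either strand, a TCF motif (CTTTGAA or CTTTGAT), a SOX motif (CATTGT or CTTTGT), a T/BRA motif (GGTGTG), a CDX motif (TTTATGG or TTTATTG) or an RBPJ motif (TGGGAA).
Dll1 −6.4 kb: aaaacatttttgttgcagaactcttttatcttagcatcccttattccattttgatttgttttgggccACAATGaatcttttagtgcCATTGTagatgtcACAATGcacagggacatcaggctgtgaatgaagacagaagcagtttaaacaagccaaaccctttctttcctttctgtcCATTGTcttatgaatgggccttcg
Dll3 −0.1 kb: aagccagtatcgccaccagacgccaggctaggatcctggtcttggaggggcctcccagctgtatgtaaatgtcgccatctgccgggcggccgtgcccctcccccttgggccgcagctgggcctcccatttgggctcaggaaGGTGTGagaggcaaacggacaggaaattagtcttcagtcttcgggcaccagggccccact
Notch1 +60.8 kb: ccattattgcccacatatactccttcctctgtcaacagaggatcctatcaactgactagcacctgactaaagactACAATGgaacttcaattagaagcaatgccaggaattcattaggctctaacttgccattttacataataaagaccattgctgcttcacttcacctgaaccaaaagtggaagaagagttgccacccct
Lfng −0.7 kb: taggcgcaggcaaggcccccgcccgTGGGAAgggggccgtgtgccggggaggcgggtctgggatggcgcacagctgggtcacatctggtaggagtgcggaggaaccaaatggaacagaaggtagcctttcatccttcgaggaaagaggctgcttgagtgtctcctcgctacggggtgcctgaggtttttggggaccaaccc
Hes1 +17.0 kb: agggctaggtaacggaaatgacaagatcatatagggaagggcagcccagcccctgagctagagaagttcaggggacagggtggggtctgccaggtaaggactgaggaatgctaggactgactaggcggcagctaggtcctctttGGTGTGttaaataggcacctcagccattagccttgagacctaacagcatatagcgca
Hes7 −1.4 kb: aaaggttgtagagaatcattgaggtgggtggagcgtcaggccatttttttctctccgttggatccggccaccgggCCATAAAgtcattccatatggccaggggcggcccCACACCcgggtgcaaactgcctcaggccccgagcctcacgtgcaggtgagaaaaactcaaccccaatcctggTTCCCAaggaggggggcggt
Dll1 −4.8 kb: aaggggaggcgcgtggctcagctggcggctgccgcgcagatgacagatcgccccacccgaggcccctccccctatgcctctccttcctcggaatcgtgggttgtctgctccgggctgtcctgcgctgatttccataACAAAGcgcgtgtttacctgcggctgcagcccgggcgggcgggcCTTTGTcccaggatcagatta
Dll3 +12.2 kb: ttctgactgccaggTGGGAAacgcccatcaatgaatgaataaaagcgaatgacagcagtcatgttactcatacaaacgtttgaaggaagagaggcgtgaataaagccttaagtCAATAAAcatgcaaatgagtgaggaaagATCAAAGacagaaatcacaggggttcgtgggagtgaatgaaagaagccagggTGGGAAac
Hes7 −2.3 kb: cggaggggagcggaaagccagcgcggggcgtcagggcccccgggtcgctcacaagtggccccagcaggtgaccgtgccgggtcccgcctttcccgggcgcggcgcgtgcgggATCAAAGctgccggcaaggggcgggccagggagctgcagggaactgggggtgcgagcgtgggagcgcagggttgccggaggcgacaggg

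In these 9 sequences the TCF motif occurred once at Hes7 −2.3 kb and once at Dll3 +12.2 kb. The Dll1 −6.4 kb sequence held 4 SOX matches and Dll1 −4.8 kb held 2. The T/BRA motif was present at Dll3 −0.1 kb, Hes1 +17.0 kb and Hes7 −1.4 kb, and the last of these also held a CDX and an RBPJ match. Over all 598025 sites of the series, each a merged set of windows of 100 bp around the summits of the strongest peaks, 11.6% held the TCF motif, 30.1% the SOX, 13.6% the T/BRA, 7.05% the CDX and 18.5% the RBPJ motif in the same length of 201 bp. Of the 26534 sites with a strong peak in 3 of 3 libraries of a group, 31.2%, 48.4%, 14.5%, 5.75% and 17.9% held them in that order. Among the 21 sites named at the 6 genes, the TCF motif was found at 2, the SOX motif at 9, the T/BRA motif at 4, the CDX motif at 3 and the RBPJ motif at 7. A match describes the letters alone.

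Each gene and target was given a locus rank score, log2 of 20000 divided by the rank of the strongest peak in the window, and 0 where none of the 20000 strongest peaks was there. A score of 0 therefore means rank 20000 or below, and 1 unit means a rank lower by a factor of 2 in the list. The question was whether binding at these genes tracked the level of SOX2 in the wild-type and the SOX2 TetON line alike, and only Hes7 had scores that did so without overlap. For β-catenin the 3 low-SOX2 libraries of Hes7 lay above the 3 high-SOX2 libraries in both lines, in 1 of 6 genes, where 2.45% of all genes did. The same held for TCF7L2 at Hes7, again in 1 of 6 genes, against 0.675% of all genes. Such a gene must have a strong peak in 3 of 3 CEpiLC and 3 of 3 SOX2-OFF libraries. In SOX2-OFF, 10.1% of all genes had this for β-catenin and, of the 6 genes, only Hes7. For TCF7L2 16.6% of all genes had it, as did Dll1, Hes1 and Hes7. For β-catenin in the opposite direction the count was 0 of 6 (2.99% of all genes). In either direction SOX2 gave 0 of 6 (5.85%), LEF1 0 of 6 (1.36%) and TCF7L1 0 of 6 (2.55%).

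High against low SOX2 was tested by permuting labels within each cell line, which allows 400 assignments and a smallest p of 0.005. At an unadjusted p of at most 0.05, Notch1 was called for SOX2 (18.8% of all genes were), Hes7 for β-catenin (18%), Hes7 for TCF7L1 (12%, a call lost with a replicate block, exact permutation p = 0.0625) and Hes7 for TCF7L2 (7.64%), and no gene of the 6 was for LEF1 (7.41%). With these backgrounds 1 of 6 genes is close to what all genes gave for SOX2 and β-catenin. No gene of the genome reached an adjusted p under 0.05 for any target in this exact permutation test, and the smallest adjusted value was 0.0854 with SOX2, 0.0918 with β-catenin, 0.196 with TCF7L1, 0.368 with LEF1 and 0.389 with TCF7L2. The libraries were biological triplicates from separate experiments.

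**Figure D1:**
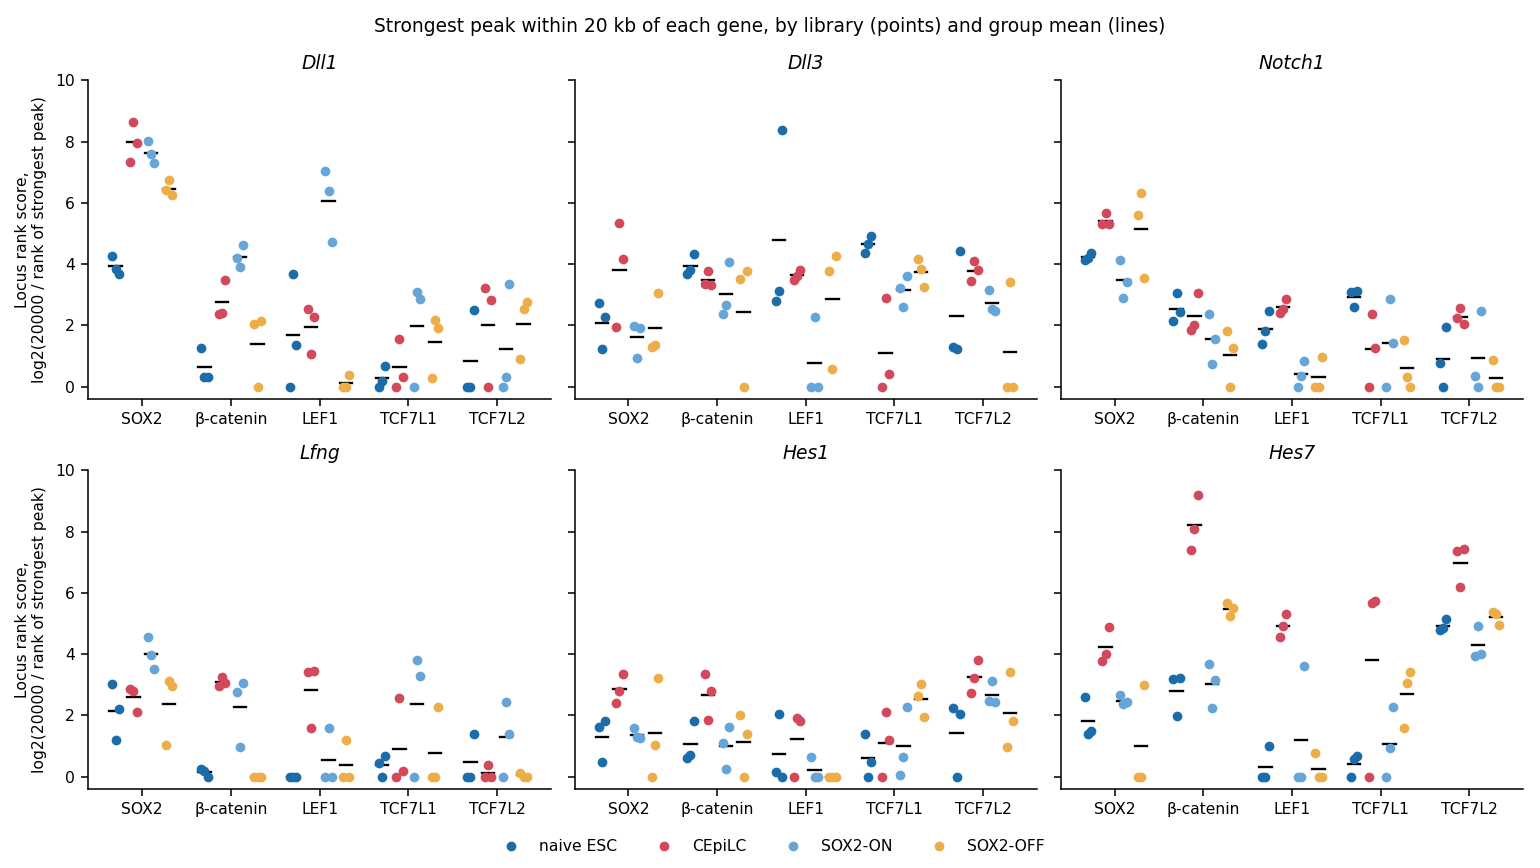
Locus rank score, log2 of 20000 over the rank of the strongest peak (y axis), of each of the 60 libraries (points) and the mean of each group of 3 (lines), in 1 panel per gene, grouped by target and coloured by condition. Hes7 has the highest β-catenin scores, at 7.39 to 9.20 in CEpiLCs, and Dll1 the highest SOX2 scores, at 7.30 to 8.64 in CEpiLCs and SOX2-ON cells.

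The conditions of the wild-type line were more often apart. Between CEpiLCs and naive ESCs 15 of 30 gene and target pairs had no overlap, though 3 libraries against 3 cannot go below p = 0.1 in an exact permutation test. SOX2 scores were above in CEpiLCs at 4 of 6 genes, Dll1, Notch1, Hes1 and Hes7, where 14.1% of all genes were. β-catenin scores were above in CEpiLCs at Dll1, Lfng, Hes1 and Hes7, also 4 of 6 (14.3%). A gene can be above only with a strong peak in 3 of 3 CEpiLC libraries. Of all genes, 36.4% had this for SOX2 and 27.2% for β-catenin, as did each of the 6 genes. For LEF1 CEpiLCs were above at Lfng and Hes7 (2 of 6, 7.03% of all genes), and for TCF7L2 at Notch1, Hes1 and Hes7 (3 of 6, 6.78%). Some CEpiLC lists of β-catenin, LEF1 and TCF7L2 were short, and in these even a weak peak scored above 0. TCF7L1 had the opposite direction, with naive ESCs above CEpiLCs at Dll3 and Notch1 (2 of 6, 16.2%).

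Between SOX2-ON and SOX2-OFF cells 7 of 30 pairs had no overlap. SOX2-ON was above at Dll1 and Lfng for SOX2 (2 of 6, where 7.95% of all genes were) and at the same genes for β-catenin (2 of 6, 7.5%), and at Dll1 for LEF1 (1 of 6, 3.33%). SOX2-OFF was above at Hes7 for β-catenin (1 of 6, 3.99%) and TCF7L2 (1 of 6, 2.81%). This needs a strong peak in 3 of 3 SOX2-OFF libraries, which 10.1% of all genes had for β-catenin and 16.6% for TCF7L2. TCF7L1 had 0 of 6 in either direction (9.49%).

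Individual sites gave the positions behind these scores. A library was said to have a peak at a site when the summit of a peak lay inside the site. No peak at a site therefore means no summit in it, and a peak with its summit nearby may still reach over the site. The 6 windows held 161 sites, of which 43 were at Notch1, the longest gene at 58761 bp, so numbers of sites were not compared between genes. Of the 33 site and target pairs with a strong peak in 3 of 3 CEpiLC libraries, 18 had one in 0 of 3 naive ESC libraries, where 39.4% of such pairs in the whole genome did. Of the 16 pairs with 3 of 3 in naive ESCs, 7 had 0 of 3 in CEpiLCs (59.5% in the whole genome). Of the 18 pairs with 3 of 3 in SOX2-ON, 7 had 0 of 3 in SOX2-OFF (44.1%), and of the 8 with 3 of 3 in SOX2-OFF, 2 had 0 of 3 in SOX2-ON (13.3%). With absence required among all deposited peaks these counts were 5, 5, 4 and 0.

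Whether the change between the high-SOX2 and the low-SOX2 condition was the same in both lines was also tested, by permuting the line labels. It differed at an unadjusted p of at most 0.05 in 2 of 6 genes for SOX2 (10.4% of all genes), 3 of 6 for β-catenin (10.7%), 3 of 6 for LEF1 (4.77%), 1 of 6 for TCF7L1 (8.2%) and 1 of 6 for TCF7L2 (4.96%), and in no gene of the 6 after adjustment. Dll1 for SOX2 and β-catenin and Lfng for β-catenin had opposite directions in the 2 lines, with CEpiLCs above naive ESCs and SOX2-ON above SOX2-OFF. Medium and cell state also changed in the wild-type line, and doxycycline and cell state in the other. A difference between lines cannot be told apart from these.

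**Figure D2:**
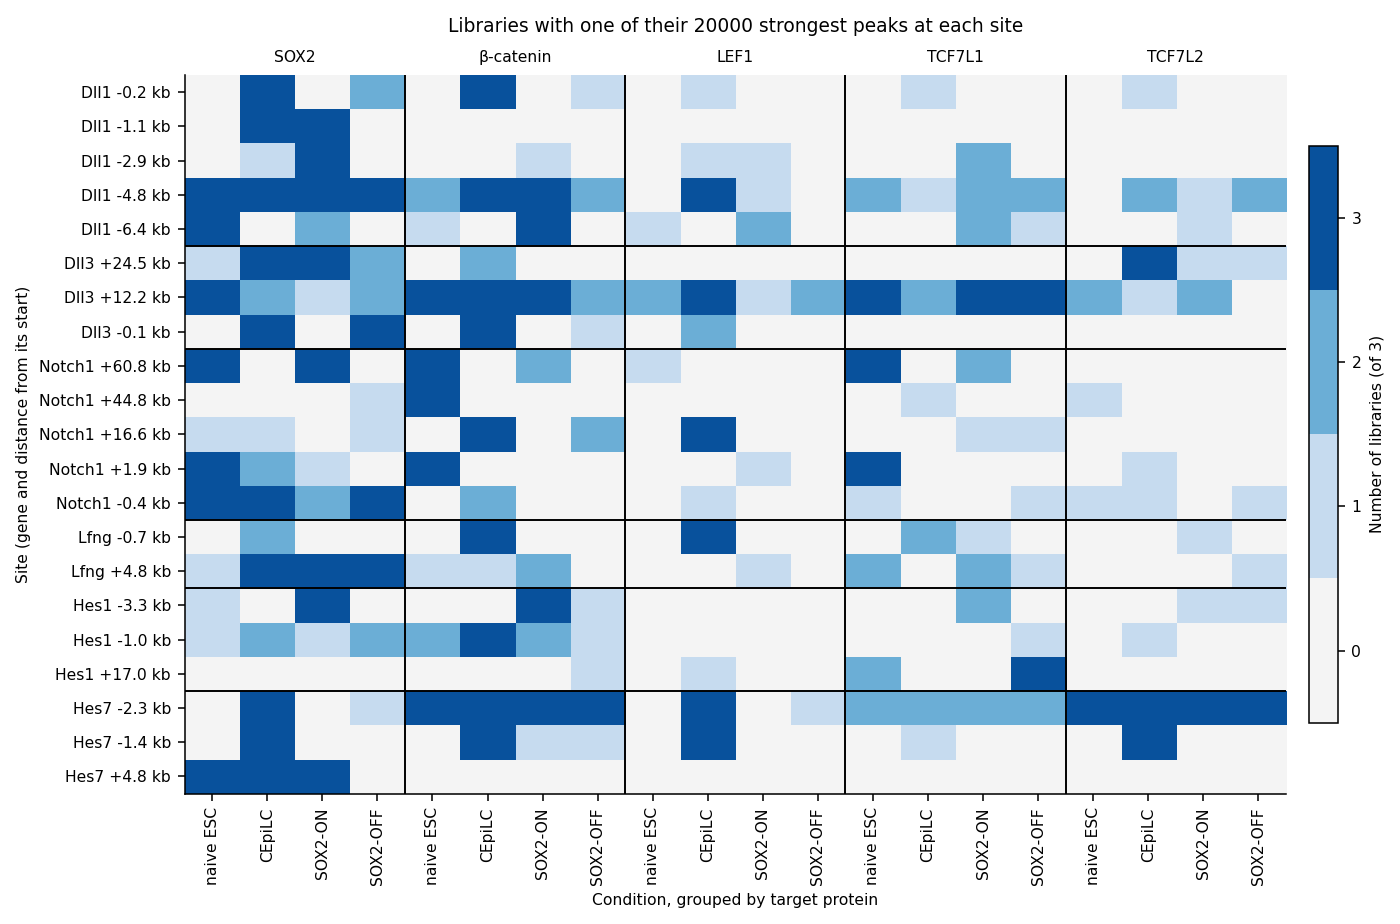
Number of libraries, from 0 to 3, that have 1 of their 20000 strongest peaks at each of the 21 named sites (y axis, gene and distance from its start in kb), for 5 targets in 4 conditions (x axis). Dll1 −4.8 kb, Dll3 +12.2 kb and Hes7 −2.3 kb are filled in most columns, and Notch1 +60.8 kb is empty in every CEpiLC and SOX2-OFF column.

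Dll1, the gene of the activating ligand (ENSMUSG00000014773.13, chr17:15367354-15376872, − strand), carried some of the strongest SOX2 peaks of the libraries. Its SOX2 rank scores were 4.27, 3.82 and 3.67 in the naive ESC libraries, 7.32, 8.64 and 7.97 in CEpiLCs, 8.0, 7.59 and 7.30 in SOX2-ON and 6.41, 6.73 and 6.24 in SOX2-OFF. Naive ESCs were thus the lowest of the 4 conditions, and no naive library reached a library of another condition. The mean of CEpiLCs exceeded that of naive ESCs by 4.06, and SOX2-ON exceeded SOX2-OFF by 1.17. In CEpiLCs the mean lay above that of 99.6% of all genes. As the higher level fell in the low-SOX2 condition of one line and in the high-SOX2 condition of the other, high minus low SOX2 was −1.44 with p = 0.11 in the exact permutation test.

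Its most often occupied site, at −4.8 kb (chr17:15380390-15380967, between genes), had a strong peak in 38 of 60 libraries. The deposited SOX2 fold there was 23.8, 21.5 and 19.1 in naive ESCs, 34.4, 58.1 and 57.1 in CEpiLCs, 38.9, 35.5 and 43.2 in SOX2-ON and 20.0, 36.4 and 37.7 in SOX2-OFF. Every SOX2 library therefore had this peak, and the naive ESC libraries lay below those of CEpiLCs and SOX2-ON. β-catenin reached 10.2, 5.72 and 6.14 in naive ESCs, 9.05, 7.94 and 10.8 in CEpiLCs and 23.7, 14.3 and 26.8 in SOX2-ON, and in SOX2-OFF 2 libraries gave 9.56 and 9.37 while replicate 2, whose list is short, had no peak. The 3 SOX2-ON libraries were above all others for β-catenin. LEF1 had a strong peak here in 3 of 3 CEpiLC libraries, with folds of 5.58, 5.39 and 7.27, and in 0 of 3 naive ESC libraries, where 1 weak peak of 4.76 was called.

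At Dll1 −6.4 kb (chr17:15382203-15382550, between genes), the sequence with 4 SOX matches, most strong peaks were found with high SOX2. The SOX2 fold was 13.6, 7.01 and 7.44 in naive ESCs and 32.6 and 36.9 in SOX2-ON libraries 1 and 2, while SOX2-ON 3 had no summit in the site. In CEpiLCs and in SOX2-OFF there was only a weak peak in replicate 2, of 4.38 and 4.88. β-catenin had folds of 20.0, 10.8 and 10.4 in SOX2-ON and no peak at all in CEpiLCs or SOX2-OFF, and in naive ESCs its peaks were 7.83, 3.34 and 5.62, of which the first was among the 20000 strongest. LEF1 had 20.3, 22.4 and a weak 3.24 in SOX2-ON and no peak in CEpiLCs or SOX2-OFF. TCF7L1 had 13.0 and 24.1 in SOX2-ON 2 and 3 and none in the first, and a strong peak of 5.01 in SOX2-OFF 2.

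Nearer to the Dll1 start, 3 further sites lay in exons of the non-coding gene A930024N18Rik. The site at −0.2 kb (chr17:15375821-15376670) had strong peaks in CEpiLCs in 3 of 3 libraries for SOX2, with folds of 6.57, 8.91 and 8.66, and for β-catenin, with 5.36, 5.46 and 5.79. No naive ESC library had a strong peak of either, and SOX2 peaks below the 20000 strongest were called in 2, at 9.04 and 4.76. The first of these folds is above those of the CEpiLC libraries, but its list was longer and its 20000th peak had a fold of 9.89. For β-catenin, CEpiLC 2 and 3 are short lists, and the 20000th peak of naive ESCs had a fold of 5.90, 6.35 and 5.64. The β-catenin folds of 5.36 and 5.46 would thus not count as strong in any naive ESC library. The sites at −1.1 kb (chr17:15376988-15377237) and −2.9 kb (chr17:15378813-15379106) had strong SOX2 peaks in SOX2-ON and not in SOX2-OFF cells. Their SOX2 folds in SOX2-ON were 12.9, 6.61 and 7.36 at −1.1 kb and 12.6, 11.9 and 15.4 at −2.9 kb. CEpiLCs also had the −1.1 kb site in 3 of 3 SOX2 libraries, at 5.79, 5.96 and 5.78.

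**Figure D3:**
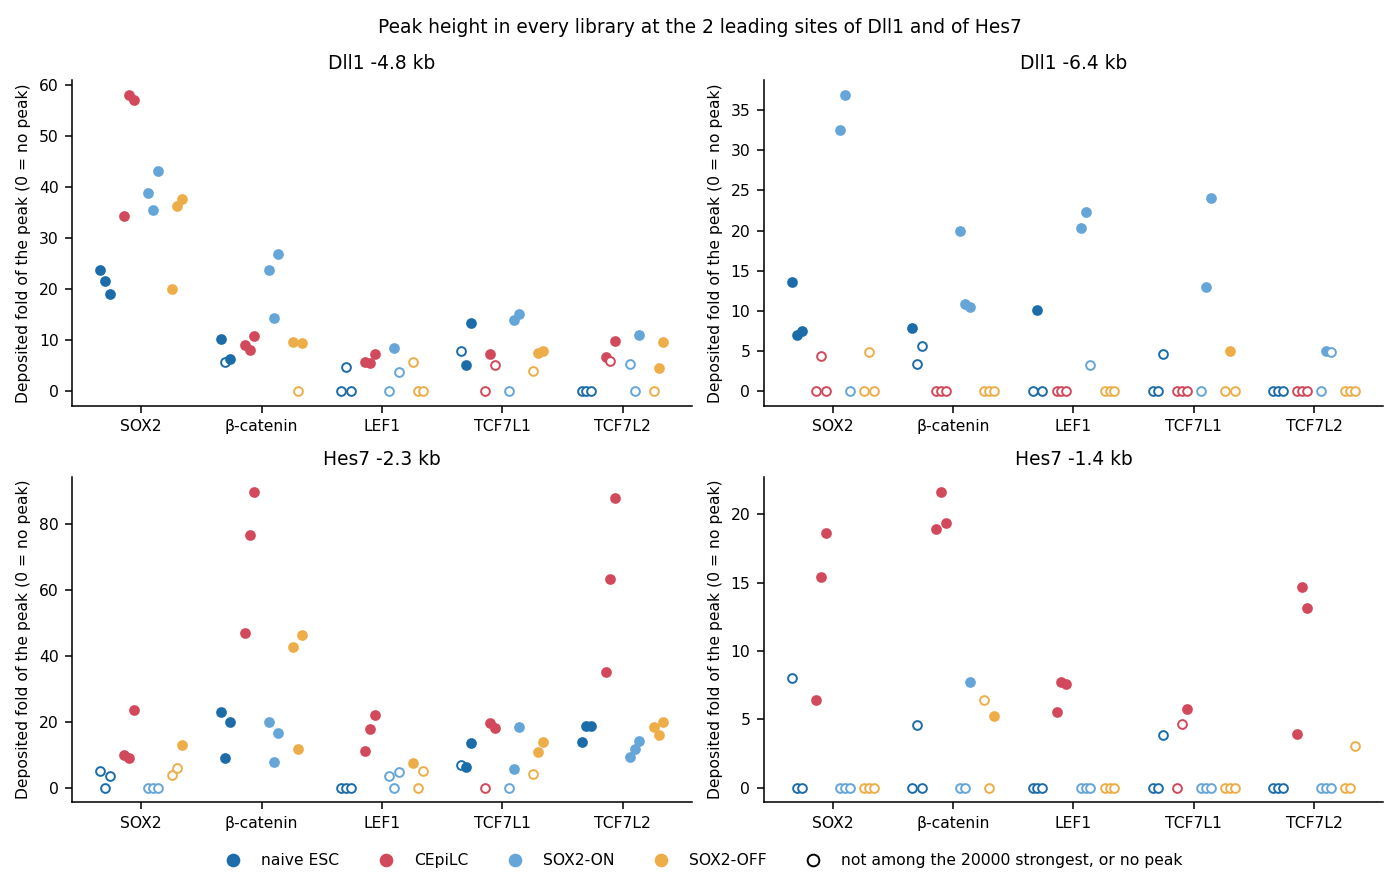
Deposited fold of the peak (y axis, linear, 0 where no peak had its summit in the site) in each library at 2 sites of Dll1 and 2 of Hes7, grouped by target and coloured by condition, with open points for peaks not among the 20000 strongest. At Dll1 −4.8 kb SOX2 is present in every library, at Dll1 −6.4 kb the SOX2-ON points reach 36.9, and at Hes7 −2.3 kb the β-catenin and TCF7L2 points of CEpiLCs stand at 35 to 89.8.

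Over the whole Dll1 locus, β-catenin rank scores were 1.26, 0.32 and 0.31 in naive ESCs, 2.37, 2.41 and 3.48 in CEpiLCs, 4.19, 3.92 and 4.62 in SOX2-ON and 2.06, 0.00 and 2.13 in SOX2-OFF. SOX2-ON cells were highest, and naive ESCs did not overlap with CEpiLCs. LEF1 scores were 7.03, 6.4 and 4.72 in SOX2-ON and at most 0.38 in SOX2-OFF, a difference of 5.92. The 4.72 of SOX2-ON 3 came from +13.5 kb, a site with a peak in 1 of 60 libraries. Those of SOX2-ON 1 and 2 came from −6.4 kb, where SOX2-ON 3 had only a weak LEF1 peak. LEF1 SOX2-OFF 2 is a short list. The naive ESC and CEpiLC scores of LEF1 overlapped, with means of 1.67 and 1.95. TCF7L1 and TCF7L2 scores at Dll1 spread from 0.00 to 3.34 and overlapped between conditions in both lines.

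Dll3, the gene of the divergent ligand (ENSMUSG00000003436.11, chr7:28293553-28302238, − strand), had its highest TCF7L1 scores in naive ESCs. TCF7L1 rank scores there were 4.36, 4.65 and 4.92 in naive ESCs, 0.00, 2.89 and 0.41 in CEpiLCs, 3.20, 2.59 and 3.62 in SOX2-ON and 4.16, 3.82 and 3.25 in SOX2-OFF. The naive libraries lay above all CEpiLC libraries, by 3.54 on average, whereas SOX2-ON and SOX2-OFF overlapped. The mean lay above that of 96.7% of all genes in naive ESCs, 95.0% in SOX2-ON, 95.1% in SOX2-OFF and 79.3% in CEpiLCs. CEpiLC 1 is the shortest list of the series, with 1626 peaks. Without the short lists of TCF7L1, CEpiLC scores of 2.89 and 0.41 remained below the naive ones.

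The signal came from Dll3 +12.2 kb (chr7:28289609-28290396, in an intron of Selenov), the site most often occupied at the 6 genes, with a strong peak in 43 of 60 libraries. TCF7L1 folds at this site were 43.5, 36.5 and 93.7 in naive ESCs, 8.44 and 5.6 in CEpiLC 2 and 3, 6.19, 11.3 and 33.4 in SOX2-ON and 13.6, 15.2 and 12.8 in SOX2-OFF. β-catenin folds were 27.0, 16.5 and 30.8 in naive ESCs, 13.6, 14.7 and 8.93 in CEpiLCs, 12.2, 8.88 and 22.7 in SOX2-ON, and 16.8 and 21.4 in SOX2-OFF 1 and 3. Naive libraries were higher than those of CEpiLCs for both proteins. By rank, however, the β-catenin scores of Dll3 overlapped between naive ESCs (3.66, 3.80 and 4.33) and CEpiLCs (3.34, 3.76 and 3.33). LEF1 had a single outlying library at this gene, naive ESC 3, with a score of 8.38 and a fold of 26.4 at this site, against scores of 2.80 and 3.14 in the other naive libraries. The site is nearer to Selenov than to Dll3, and which gene it serves was not tested.

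At the Dll3 start, the site at −0.1 kb (chr7:28302090-28302689, between genes) was occupied by SOX2 in the low-SOX2 conditions. Its folds were 7.87, 9.47 and 18.8 in CEpiLCs and 5.50, 8.29 and 11.9 in SOX2-OFF. In naive ESCs only weak SOX2 peaks of 7.51 and 2.77 were called in replicates 1 and 3, and in SOX2-ON 1 weak peak of 4.25. SOX2 here was 1 of the 2 site and target pairs in the 6 loci with 3 of 3 SOX2-OFF and 0 of 3 SOX2-ON libraries. β-catenin had folds of 10.5, 9.31 and 8.41 in CEpiLCs, a strong peak of 7.23 and a weak one of 4.06 in SOX2-OFF, and no strong peak in naive ESCs or SOX2-ON. A further site at +24.5 kb (chr7:28277575-28277941), in the 5′ UTR of Eid2b, had TCF7L2 folds of 7.25, 17.7 and 14.6 in CEpiLCs and 1 weak peak of 5.00 in naive ESCs.

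Notch1, the receptor gene (ENSMUSG00000026923.15, chr2:26457903-26516663, − strand), had higher SOX2 scores with low SOX2. They were 4.15, 4.18 and 4.37 in naive ESCs, 5.31, 5.65 and 5.30 in CEpiLCs, 4.12, 2.90 and 3.43 in SOX2-ON and 5.59, 6.33 and 3.55 in SOX2-OFF. CEpiLCs lay above naive ESCs without overlap, and SOX2-OFF 3 fell among the SOX2-ON libraries. High minus low SOX2 was −1.43, from means of 3.86 ± 0.57 and 5.29 ± 0.93 (SD, n = 6), with an exact permutation p of 0.01 and an adjusted p of 0.130 over all genes. In the log2 of 1 plus the fold of the strongest of all deposited peaks the difference was −0.16 with an exact permutation p of 0.52, so the call rests on ranks within the lists.

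The strongest SOX2 peak of Notch1 did not lie at the same site in every condition. In all 6 CEpiLC and SOX2-OFF libraries it was at −0.4 kb (chr2:26503829-26504363), in an intron of a longer Notch1 transcript, and in the 6 other libraries it lay elsewhere. The SOX2 fold at −0.4 kb was 16.0, 7.35 and 6.61 in naive ESCs, 21.6, 25.9 and 27.2 in CEpiLCs, 10.2, 5.76 and 12.8 in SOX2-ON and 15.5, 32.7 and 15.8 in SOX2-OFF. Within each line every low-SOX2 library exceeded every high-SOX2 library at this site.

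Downstream of the gene, Notch1 +60.8 kb (chr2:26442880-26443152, in an intron of Sec16a) showed the opposite pattern. SOX2 folds were 14.9, 23.5 and 20.4 in naive ESCs and 18.9, 13.7 and 8.36 in SOX2-ON, with 1 weak peak of 4.17 in CEpiLCs and none in SOX2-OFF. For β-catenin they were 15.1, 12.9 and 14.3 in naive ESCs and 5.38 and 9.77 in SOX2-ON 2 and 3, and for TCF7L1 27.4, 15.9 and 46.0 in naive ESCs and 12.7 and 12.1 in SOX2-ON 2 and 3. Neither protein had a peak of any strength here in the CEpiLC and SOX2-OFF libraries. This site and Hes7 −1.4 kb held the most site and target pairs with 3 of 3 against 0 of 3 libraries, 4 each. It lies within the window of Notch1 but in the neighbouring gene, and which gene it serves was not tested.

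Inside Notch1, the site at +1.9 kb (chr2:26501653-26502096, in an exon of a non-coding Notch1 transcript) was a naive ESC site. β-catenin folds were 12.2, 8.26 and 10.2 and TCF7L1 folds 14.2, 9.94 and 16.1 in naive ESCs, with no peak of either in CEpiLCs. SOX2 was present there in naive ESCs, at 16.7, 16.8 and 23.1, and in 2 CEpiLC libraries, at 11.8 and 10.1. At the intronic site at +16.6 kb (chr2:26486718-26487590) β-catenin folds were 7.41, 6.70 and 9.03 and LEF1 folds 5.26, 5.84 and 8.75 in CEpiLCs, and no naive ESC library of these targets had a strong peak. β-catenin was also strong there in SOX2-OFF 1 and 3, at 7.08 and 6.48. SOX2 had its highest fold at this site, 11.9, in naive ESC 1. At +44.8 kb (chr2:26458909-26459172), in the 3′ UTR, β-catenin had folds of 7.82, 7.13 and 7.35 in naive ESCs and no peak in CEpiLCs. The rank scores of β-catenin over the whole gene overlapped between the 2 conditions, with means of 2.54 ± 0.47 in naive ESCs and 2.31 ± 0.66 in CEpiLCs (SD, n = 3). TCF7L1 scores were 3.09, 2.59 and 3.12 in naive ESCs and 0.00, 2.38 and 1.27 in CEpiLCs. TCF7L2 scores were 0.78, 0.00 and 1.93 in naive ESCs and 2.22, 2.56 and 2.04 in CEpiLCs. TCF7L1 was thus higher in naive ESCs and TCF7L2 in CEpiLCs by rank, each without overlap. CEpiLC 1 is a short list for both targets. For TCF7L2 it holds 4627 peaks, and its fold of 4.11 was below the 5.40 and 8.49 of naive ESC 1 and 3.

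Lfng, the glycosyltransferase gene (ENSMUSG00000029570.5, chr5:140607320-140615545, + strand), had stronger β-catenin and LEF1 peaks in CEpiLCs than in naive ESCs. β-catenin scores were 0.25, 0.19 and 0.00 in naive ESCs, 2.96, 3.24 and 3.05 in CEpiLCs, 2.77, 0.96 and 3.06 in SOX2-ON and 0.00 in all 3 SOX2-OFF libraries. The score was thus high in CEpiLCs and in SOX2-ON 1 and 3, and near or at 0 in naive ESCs and SOX2-OFF. The 0.96 of SOX2-ON 2 came from a peak at +21.8 kb, in an intron of Ttyh3. SOX2-OFF 2 is a short β-catenin list. LEF1 scores were 0.00 in all 3 naive libraries and 3.43, 1.57 and 3.45 in CEpiLCs. In the SOX2 TetON line LEF1 scored above 0 in 1 library of each condition, 1.60 in SOX2-ON 2 and 1.19 in SOX2-OFF 2.

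β-catenin bound different sites of Lfng in CEpiLCs and SOX2-ON. At −0.7 kb (chr5:140606411-140606782, between genes) its folds were 11.6, 11.5 and 8.89 in CEpiLCs, and no peak was called in naive ESCs or SOX2-ON. LEF1 folds at this site were 7.65, 6.07 and 10.8 in CEpiLCs. The intronic site at +4.8 kb (chr5:140611952-140612318) was the one most often occupied, with a strong peak in 21 of 60 libraries. SOX2 folds there were 6.12, 5.05 and 12.1 in naive ESCs, where only the last was strong, and 10.6, 9.07 and 9.62 in CEpiLCs. They were 20.7, 18.2 and 19.4 in SOX2-ON and 5.53, 12.1 and 12.8 in SOX2-OFF, so the SOX2-ON libraries were highest. β-catenin reached 14.1 and 15.8 in SOX2-ON 1 and 3, with a weak 4.52 in SOX2-ON 2, and in CEpiLCs had a single peak of 3.10. TCF7L1 had folds of 18.3 and 29.4 in SOX2-ON 2 and 3. The SOX2 rank scores of the gene were 4.56, 3.97 and 3.53 in SOX2-ON and 1.03, 3.11 and 2.95 in SOX2-OFF, without overlap.

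Hes1, a general Notch target (ENSMUSG00000022528.8, chr16:30064384-30067796, + strand), had rank scores of at most 3.82 for every target. SOX2 scores were 1.63, 0.49 and 1.81 in naive ESCs and 2.42, 2.80 and 3.34 in CEpiLCs, and in the SOX2 TetON line they were 1.57, 1.28 and 1.25 while doxycycline was kept and 0.00, 1.03 and 3.24 after its removal. β-catenin scores were 0.62, 0.72 and 1.81 in naive ESCs and 3.33, 1.83 and 2.80 in CEpiLCs, with the nearest libraries at 1.81 and 1.83. TCF7L2 scores were 2.25, 0.00 and 2.05 in naive ESCs and 2.71, 3.23 and 3.82 in CEpiLCs. CEpiLCs were above by rank for these 3 targets, and SOX2-ON and SOX2-OFF overlapped for all 5. For 2 of the 3 targets this involved a short CEpiLC list. The β-catenin fold of CEpiLC 2 was 6.34 against 10.9 in naive ESC 3. The TCF7L2 fold of CEpiLC 1 was 5.48 against 6.50 and 8.81 in naive ESC 1 and 3.

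The site most often occupied at Hes1, −1.0 kb (chr16:30063550-30064501), had a strong peak in 16 of 60 libraries, with β-catenin folds of 7.42, 6.34 and 8.03 in CEpiLCs and 7.69 and 7.02 in naive ESC 1 and 2. At −3.3 kb (chr16:30061646-30062352, between genes) SOX2-ON cells had SOX2 folds of 6.70, 8.29 and 7.47 and β-catenin folds of 8.34, 4.91 and 9.97. SOX2-OFF cells had no SOX2 peak there and β-catenin peaks of 4.93 and 6.27 in replicates 1 and 3. The site at +17.0 kb (chr16:30082061-30082531) was a TCF7L1 site, with folds of 8.98, 10.6 and 7.87 in SOX2-OFF and 1 weak peak of 3.47 in SOX2-ON. In naive ESCs TCF7L1 folds there were 9.38, 4.20 and 12, and in CEpiLCs no peak was called.

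Hes7, the repressor of the segmentation clock (ENSMUSG00000023781.2, chr11:69120404-69124055, + strand), had the largest high minus low difference of the 30 gene and target pairs, for β-catenin. β-catenin rank scores were 3.19, 1.99 and 3.22 in naive ESCs, 7.39, 8.10 and 9.20 in CEpiLCs, 3.66, 2.25 and 3.15 in SOX2-ON and 5.68, 5.24 and 5.49 in SOX2-OFF. In CEpiLC 3 the peak ranked 34th of all β-catenin peaks of the library. All 6 low-SOX2 libraries lay above all 6 high-SOX2 libraries. The means were 2.91 ± 0.64 with high and 6.85 ± 1.62 with low SOX2 (SD, n = 6), a difference of −3.94 with an exact permutation p of 0.005, the smallest the design allows, and an adjusted p of 0.0918 over all genes. The difference was −4.35 without replicate 1, −3.63 without replicate 2 and −3.83 without replicate 3, and −3.58 without the short lists. It was larger in the wild-type line (−5.43 for naive ESCs minus CEpiLCs) than in the SOX2 TetON line (−2.45 for SOX2-ON minus SOX2-OFF), with an unadjusted exact permutation p of 0.035 and an adjusted p of 0.465 for the difference between lines.

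TCF7L2 scores were 4.77, 4.84 and 5.14 in naive ESCs, 7.36, 6.19 and 7.42 in CEpiLCs, 3.94, 4.92 and 4.01 in SOX2-ON and 5.39, 5.30 and 4.95 in SOX2-OFF. In each line the low-SOX2 libraries were above, narrowly so for SOX2-OFF 3 over SOX2-ON 2. High minus low was −1.50, with p = 0.005 in the exact permutation test and 0.389 after adjustment. With a window of 50 kb it was −0.35 with an exact permutation p of 0.335, and the cause was not tested. TCF7L1 scores were 0.00, 0.56 and 0.67 in naive ESCs, 0.00, 5.67 and 5.73 in CEpiLCs, 0.00, 0.94 and 2.27 in SOX2-ON and 1.59, 3.05 and 3.41 in SOX2-OFF. Its difference of −2.50 had an exact permutation p of 0.045 and an adjusted p of 0.418. With the replicate number as a block the exact permutation p was 0.0625, which ends the call, and with equal-length lists the difference was −0.69. In CEpiLCs the lowest TCF7L1 score came from the short list.

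The β-catenin and TCF7L2 scores came from 1 site in every library. Hes7 −2.3 kb (chr11:69117938-69118217, between genes), the GC-rich sequence with the TCF match ATCAAAG on its + strand, had a strong peak in 40 of 60 libraries, among them all 12 of β-catenin and all 12 of TCF7L2. β-catenin folds were 23.0, 9.08 and 20.0 in naive ESCs, 46.8, 76.7 and 89.8 in CEpiLCs, 19.8, 7.67 and 16.4 in SOX2-ON and 42.7, 11.8 and 46.2 in SOX2-OFF. The CEpiLC libraries were all above the others, and SOX2-OFF 2, from a list of 3423 peaks, fell among the high-SOX2 libraries by fold but not by rank. TCF7L2 folds were 13.8, 18.8 and 18.5 in naive ESCs, 35, 63.3 and 88.0 in CEpiLCs, 9.41, 11.7 and 14.1 in SOX2-ON and 18.5, 15.8 and 19.8 in SOX2-OFF. LEF1 had 11, 17.7 and 22 in CEpiLCs, no peak in naive ESCs, and in SOX2-OFF 7.57 and a weak 5.07. SOX2 had 9.77, 9.11 and 23.6 in CEpiLCs, no strong peak in naive ESCs and no peak in SOX2-ON. In SOX2-OFF it had weak peaks of 3.86 and 5.92 and a strong one of 12.9. The percent of all genes with a lower mean β-catenin score than Hes7 was 99.8 in CEpiLCs, 98.4 in SOX2-OFF, 92.9 in SOX2-ON and 89.8 in naive ESCs.

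The neighbouring site at −1.4 kb (chr11:69118940-69119220, between genes) was occupied in CEpiLCs by 4 targets. SOX2 had folds of 6.43, 15.4 and 18.7 there, and β-catenin folds of 18.9, 21.7 and 19.4. LEF1 followed with 5.54, 7.70 and 7.61, and TCF7L2 with 3.93, 14.7 and 13.2. The 3.93 is from CEpiLC 1, a list of 4627 peaks in which every peak counted as strong. LEF1 CEpiLC 1 and 2 and β-catenin CEpiLC 2 and 3 are short lists as well. No naive ESC library of these targets had a strong peak, and the weak peaks were SOX2 at 8.03 and β-catenin at 4.60, in 1 library each. In the SOX2 TetON line β-catenin had a strong peak in 1 library of each condition, at 7.71 in SOX2-ON and 5.27 in SOX2-OFF, and SOX2 and LEF1 had no peak in any library of either condition. SOX2 itself had a site at +4.8 kb (chr11:69124933-69125303), downstream of the gene. The strongest summit of this site lay 722 bp from a start of the neighbouring gene Aloxe3, and which gene it serves was not tested. SOX2 folds at the site were 16.3, 9.63 and 9.36 in naive ESCs, 14.0, 11.9 and 8.09 in CEpiLCs and 12.5, 11.6 and 14.3 in SOX2-ON. In SOX2-OFF there were only weak peaks of 3.71 and 3.11.

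**Figure D4:**
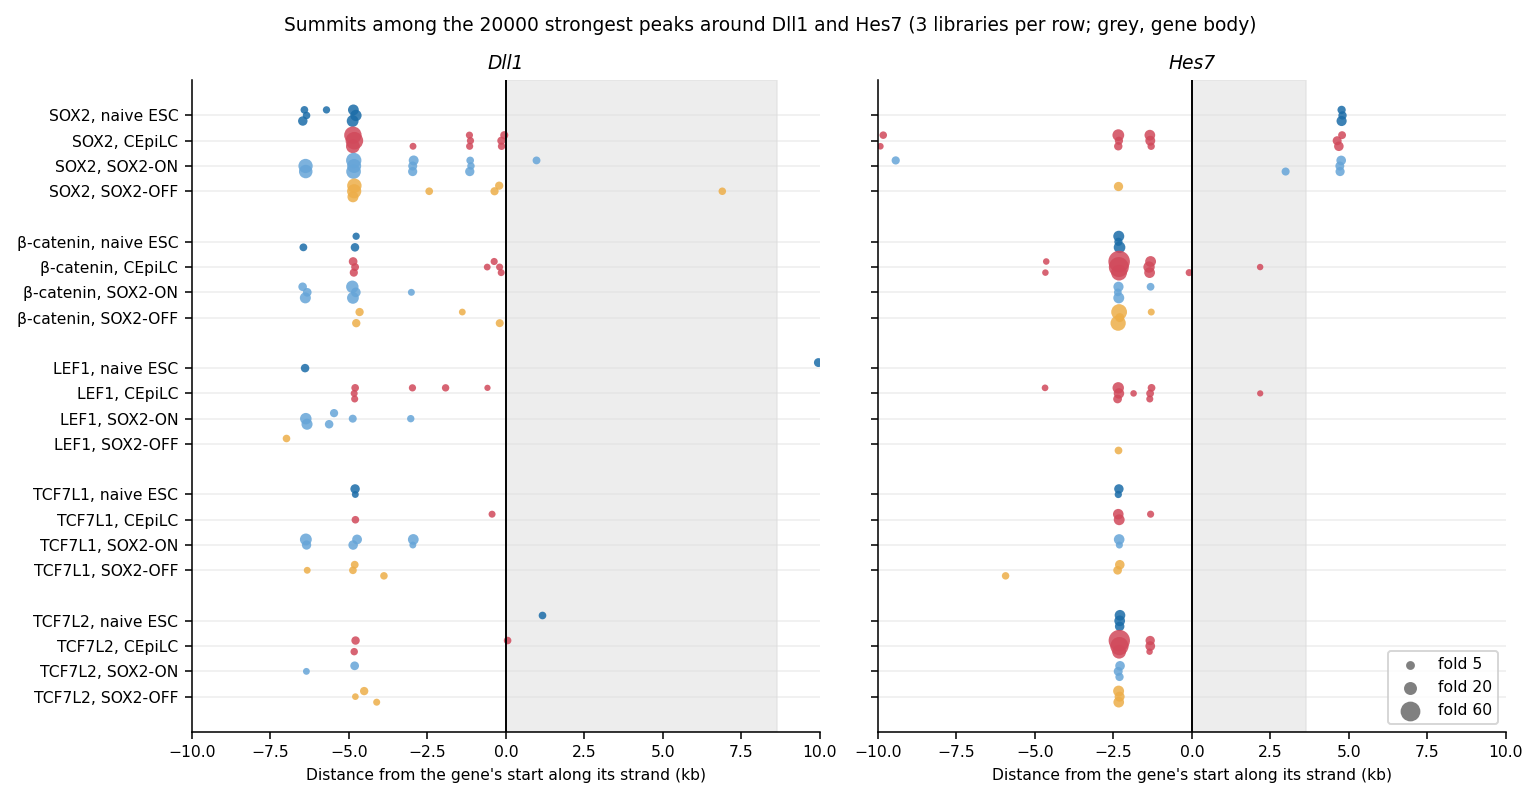
Summits among the 20000 strongest peaks along 10 kb on either side of the starts of Dll1 and Hes7 (x axis, kb along the gene's strand), with a line for each target and condition (y axis), points of 3 libraries each, and point area growing with the deposited fold. Summits upstream of Dll1 fall at −4.8 kb in all conditions for SOX2 and at −6.4 kb mainly in naive ESCs and SOX2-ON, and those of Hes7 fall at −2.3 kb for every target, with −1.4 kb in CEpiLCs and +4.8 kb for SOX2.

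SOX2 and β-catenin were set side by side at the 161 sites. In CEpiLCs 12 sites had SOX2 in 3 of 3 libraries and 11 had β-catenin, and 6 had both, which is 6 of 12 and 6 of 11. Over all sites of the genome 2365 had both, of 6818 with SOX2 and 6212 with β-catenin. In naive ESCs these counts were 7, 5 and 3 (5695, 6838 and 2911 over all sites), in SOX2-ON 10, 5 and 2 (6991, 4348 and 2427), and in SOX2-OFF 4, 1 and 0 (2617, 2311 and 873). The short β-catenin list of SOX2-OFF 2 limits the last of these.

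The 37 other genes of the pathway comprised 24 of Notch signalling and 13 of the segmentation clock and somite formation. For SOX2, 3 of the 24 had no overlap in both lines with low SOX2 above, where 3.61% of all genes did, and 0 of the 13. They were Nrarp, an intracellular inhibitor of Notch, Dll4, a further Delta ligand, and Numbl, a relative of the Notch antagonist Numb. The mean SOX2 rank score of Nrarp was 2.78 ± 0.77 in naive ESCs, 8.89 ± 1.69 in CEpiLCs, 2.13 ± 0.83 in SOX2-ON and, again high, 8.13 ± 0.80 in SOX2-OFF (SD, n = 3). Dll4 had 0.87 ± 1.49, 4.61 ± 0.20, 1.27 ± 1.17 and 4.68 ± 1.51 in the same order, and Numbl 0.74 ± 0.66, 1.78 ± 0.33, 0.09 ± 0.15 and 1.52 ± 0.57. For β-catenin, high SOX2 was above at 1 of the 24, Rbpj, and at 2 of the 13, Snai1 and Spry4, where 2.99% of all genes were. Such genes need a strong peak in 3 of 3 libraries of both conditions in which they are above. Of all genes, 25.2% had this for SOX2 in SOX2-OFF and 22.6% for β-catenin in SOX2-ON. Rbpj encodes the DNA-binding partner of cleaved Notch, Snai1 a repressor of epithelial genes and Spry4 an inhibitor of FGF signalling. Rbpj had β-catenin scores of 5.81 ± 0.47 in naive ESCs, 2.86 ± 0.33 in CEpiLCs, 5.12 ± 1.32 in SOX2-ON and 2.83 ± 0.15 in SOX2-OFF. Snai1 had 6.53 ± 0.50, 2.75 ± 0.34, 3.83 ± 1.33 and 1.49 ± 1.33 in that order, and Spry4 3.16 ± 0.55, 1.25 ± 1.15, 2.12 ± 0.51 and 0.28 ± 0.33. Their high minus low differences had p = 0.005 in the exact permutation test and adjusted p-values over all genes of 0.0854 for the 3 found with SOX2 and 0.0918 for the 3 found with β-catenin, so none passed 0.05. LEF1 gave no gene without overlap in these lists. Named after their values were seen, Snai1 for TCF7L1 (1 of 13) and Jag1, a Jagged ligand, for TCF7L2 (1 of 24) lay higher with high SOX2, with differences of 3.86 and 3.31 and adjusted p-values of 0.196 and 0.389 in the exact permutation test. In that direction 1.75% of all genes had no overlap for TCF7L1 and 0.611% for TCF7L2.

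Over the 6 genes the median high minus low difference was lowest with SOX2, at −0.91, followed by TCF7L2 at −0.48, LEF1 at −0.40, β-catenin at 0.01 and TCF7L1 at 0.31. Over all genes tested the medians were −0.04, 0.02, 0.02, 0.00 and 0.00 in that order.

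As a description of likeness, the rank scores of each gene were correlated with those of all others over the 60 libraries, which share targets, conditions and list lengths. The scores of Dll1 were most like those of Gm5089 (r = 0.80), those of Notch1 like Dynll1 (r = 0.83), those of Hes7 like Kxd1 (r = 0.83), those of Hes1 like Lenep and Flad1 of chromosome 3 (r = 0.71 for both), those of Lfng like Prex2 (r = 0.68) and those of Dll3 like Etv5 (r = 0.60). Among the 6 genes the highest values were 0.60 for Hes1 with Hes7, 0.58 for Dll1 with Lfng and 0.58 for Dll1 with Notch1, and Dll3 stayed at or below 0.25 with each of the others.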

How the data were processed

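According to the study's methods, the authors ran the nf-core ChIP-seq pipeline on single-end reads of 76 bp, trimmed them with Trim Galore, aligned them with BWA to mm10 and called narrow peaks with MACS2 at a q-value under 0.05, separately for each library. The pairing of libraries with inputs and the tool versions were not given in the sources used here. The deposited fold is the ratio of the summit signal to the local background as MACS2 gave it to the authors. Of the other deposited columns, the −log10 p-value served as another ranking and the −log10 q-value as a filter, both as the authors' caller wrote them. The deposited score of each peak was not used.

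Computations were run in Python 3.11.15 with numpy 2.4.6 and pandas 2.3.3, with figures in matplotlib 3.10.9. Gene bodies were those of GENCODE M21, and sequences came from RefSeq GRCm38.p6. Peaks were limited to chromosomes 1 to 19, X and Y. The fold and rank of a peak carry no interval, since read depth is unknown. High against low SOX2 used exact two-sided permutation within cell line, adjusted by the Benjamini-Hochberg method over 21938 genes per target, and the difference between lines used 400 assignments of line labels. The scoring and test were checked on simulated peak lists. Sites were named where 3 of 3 libraries of 1 condition and 0 of 3 of the other had a strong peak (the 4 of highest median fold where a locus had more), together with the most often occupied site of each locus. Pathway genes were named where groups did not overlap in both lines for SOX2 or β-catenin. The members, gene lists and tests were chosen with earlier results of these data known. Alternatives were ranking by p-value, equal-length lists, 5000 peaks, all deposited peaks, windows of 10 and 50 kb, −log10 q of at least 5, site windows of 250 bp, leaving out each replicate and the replicate block. Leaving out lists of fewer than 20000 peaks was added after seeing the data.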

Additional observations from a re-analysis of the deposited data

Results flagged for a closer look

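In 10 of 30 gene and target pairs the change between the high-SOX2 and the low-SOX2 condition differed between the wild-type line (naive ESCs minus CEpiLCs) and the SOX2 TetON line (SOX2-ON minus SOX2-OFF). This was at an unadjusted p of at most 0.05, from 400 assignments of line labels in a permutation test. None had an adjusted p under 0.05 over all genes, the smallest being 0.313, and the cause was not tested. Of all genes, between 4.77% and 10.7% passed the same p, depending on the target.

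For Dll1 the difference of the differences in rank score was −5.22 for SOX2, from −4.06 in the wild-type line and 1.17 in the SOX2 TetON line, −4.97 for β-catenin, from −2.12 and 2.85, and −6.20 for LEF1, from −0.28 and 5.92, each with an exact permutation p of 0.005. For Lfng it was −5.20 for β-catenin, from −2.94 and 2.27, with an exact permutation p of 0.005, and −2.96 for LEF1, with an exact permutation p of 0.05. At Dll1 for SOX2 and β-catenin and at Lfng for β-catenin, the groups did not overlap in either line and had opposite orders. In SOX2-ON 3 the LEF1 score of Dll1 came from +13.5 kb, a site with a peak in 1 of 60 libraries. The β-catenin score of Lfng in SOX2-ON 2 came from a peak at +21.8 kb. For Hes7 the difference of the differences was −3.89 for SOX2 (exact permutation p = 0.015), −2.98 for β-catenin (exact permutation p = 0.035) and −5.55 for LEF1 (exact permutation p = 0.05). For Dll3 it was 4.15 for TCF7L1 (exact permutation p = 0.005) and for Hes1 −2.43 for TCF7L2 (exact permutation p = 0.04).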

How the results depend on the processing

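The 2 pairs without overlap in both lines became 1 with all deposited peaks and 1 with 50 kb, and 2 to 5 without 1 replicate. The 15 pairs of CEpiLCs against naive ESCs became 9 with all deposited peaks. The 7 pairs of SOX2-ON against SOX2-OFF became 11 with 50 kb and 10 to 14 without 1 replicate. Site and target pairs in CEpiLCs but not naive ESCs went from 18 to 5 with absence in all deposited peaks, 11 with equal-length lists and 41 without the short lists, which leaves some groups with fewer libraries. Those in naive ESCs but not CEpiLCs went from 7 to 3 with equal-length lists. Those in SOX2-ON but not SOX2-OFF went from 7 to 4 with absence in all deposited peaks and 11 to 13 without 1 replicate, and the reverse from 2 to 0, to 1 with equal-length lists and to 2 to 4 without 1 replicate. The cause was not tested.

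The differences in rank score between high and low SOX2 called at an unadjusted p of 0.05 kept their direction under every alternative run. Hes7 for β-catenin also kept its call except without 1 replicate, where the smallest possible exact permutation p is 0.0556. Its values there ran from −4.35 to −3.63, those of Hes7 for TCF7L2 from −1.81 to −1.24, of Notch1 for SOX2 from −1.88 to −0.92 and of Hes7 for TCF7L1 from −3.36 to −1.95. Hes7 for TCF7L2 lost its call with 50 kb (−0.35), Notch1 for SOX2 with all deposited peaks (−0.16), and Hes7 for TCF7L1 with ranking by p-value (−2.31), equal-length lists (−0.69), 5000 peaks (−1.60), all deposited peaks (−0.43) and 10 kb (−2.27).

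The sources used here say only that the triplicates came from separate experiments. Deviations of libraries with the same number correlated at −0.03 to 0.07, except TCF7L1 in the SOX2 TetON line at 0.13 to 0.20, where every pair was over 0.1. With the number as a replicate block, 29 of 30 pairs kept their side of 0.05, and the exact permutation p of Hes7 for TCF7L1 became 0.0625 at the same difference of −2.50.

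Other differences, none past 0.05 as reported, changed sign. With all deposited peaks they became 0.046 for Hes1 and 0.10 for Hes7 with SOX2, 0.59 for Lfng and 0.45 for Hes1 with β-catenin, 0.011 for Dll3, 0.63 for Notch1 and 1.13 for Hes1 with LEF1, 0.53 for Hes1 with TCF7L1 and 0.41 for Notch1 with TCF7L2. With 10 kb they became −0.33 for Notch1 with β-catenin and −0.097 for Notch1 with TCF7L1. With 50 kb they became 0.98 for Hes1 with LEF1, −0.16 for Dll1 with TCF7L1 and −0.19 for Lfng with TCF7L2. Equal-length lists gave −0.0044 for Notch1 with β-catenin, and these lists and 5000 peaks both gave −0.36 for Dll3 with TCF7L2. With 5000 peaks Hes1 with LEF1 was 0.0077, and with −log10 q of at least 5 Notch1 with TCF7L2 was 0.16. Without the short lists they became −0.016 for Dll3 with β-catenin, and −0.35 for Dll1 and −0.057 for Lfng with TCF7L1. Without 1 replicate the values ran from −0.011 to 1.09 for Lfng and −1.05 to 0.30 for Hes7 with SOX2, −0.52 to 0.019 for Lfng with β-catenin, −1.03 to 0.39 for Dll3 and −0.42 to 0.23 for Hes1 with LEF1, −0.20 to 0.25 for Dll1 with TCF7L1, and −0.68 to 1.02 for Dll3 and −1.12 to 0.10 for Notch1 with TCF7L2. The lists hold no read counts, so the depth that limits each value is unknown.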
